A study of Mus musculus with 15 samples.

Results

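Plau, the gene of the urokinase-type plasminogen activator, and Plaur, the gene of its receptor, are 2 of the 547 endogenous genes counted in sorted mouse microglia after traumatic brain injury. They were picked by symbol because both change with time after the injury, so their levels and fold changes are given here as a description, with no test. RNA was counted on the nCounter platform, in which color-coded probes bind mRNA molecules that are counted singly with no amplification step. There were 4 sham samples, 4 at 2 days post-injury (dpi), 4 at 14 dpi and 3 at 60 dpi, all from young adult male C57BL6J mice (the sources give 2 different ages). The injured mice had a controlled cortical impact, in which a piston strikes the exposed parieto-temporal cortex. The sham mice were 2-day shams, so 14 and 60 dpi have no sham matched in time, and only sham and 2 dpi were randomized. Cells were taken from whole brain as CD11b high and CD45 low to intermediate, a gate that can also hold macrophages derived from monocytes.

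Urokinase is a secreted serine protease. It cuts plasminogen into plasmin, which degrades fibrin and matrix proteins and activates latent growth factors. Its receptor is tied to the membrane by a lipid anchor, holds urokinase at the cell surface, binds vitronectin and signals through integrins beside it. Both genes are known as inducible in activated macrophages and microglia, in which they take part in migration and matrix turnover.

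Normalized counts here are raw counts multiplied by a factor from the positive controls and another from the housekeeping genes. Endogenous counts summed to 66905 to 280528 per sample over the 15 samples. Above background means a raw count over the mean plus 2 SD of the negative controls in that sample, which came to 25.0 to 34.0 counts for the 12 samples of the first run and 57.1 to 67.7 counts in those of the other run. Of the 547 genes, 359 were above background in at least 3 samples and were tested, and Plau and Plaur were above it in all 15. The 3 samples at 60 dpi made up that other run by themselves, so run and time cannot be told apart at 60 dpi. All 9 microglia markers on the panel, among them Cx3cr1, Csf1r and Trem2, were above background in samples of every group, and their summed level was 28606 to 38398 normalized counts in sham, 21130 to 27520 at 2 dpi, 34122 to 37890 at 14 dpi and 26956 to 35516 at 60 dpi. The study's text gives as many mice in each group as there are samples, while the labels name no mouse for a sample, so the p-values speak of the variation among samples only. In bulk RNA, fewer cells of a type and less RNA per cell cannot be told apart.

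The Plau probe was designed on NM_008873, a gene at chr14:20836662-20843388 in the GRCm38.p6 annotation of RefSeq. The Plaur probe was designed on NM_011113, a gene at chr7:24460937-24475970 in the same annotation. The deposited tables give transcripts and no positions. The promoter table used here places the transcript start of Plaur at base 24462483, which lies 1546 bases inside that gene interval, and distances below are counted from this start. The 250 bases before it, chr7:24462233-24462482 on the plus strand (RefSeq, GRCm38.p6), are shown because several transcription factors known to drive this gene were counted on the same panel. Capitals mark matches to 3 motifs searched on both strands.
Plaur upstream region: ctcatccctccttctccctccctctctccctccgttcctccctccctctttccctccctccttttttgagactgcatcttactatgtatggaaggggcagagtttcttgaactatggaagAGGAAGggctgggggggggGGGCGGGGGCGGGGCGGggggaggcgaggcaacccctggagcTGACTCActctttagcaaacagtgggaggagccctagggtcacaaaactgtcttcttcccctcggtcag
The AP-1 motif TGANTCA had 1 match, which began 69 bases before the start, and 6.75% of 32851 regions of the same length before mouse genes held this motif. The GC box GGGCGG, read by Sp1, had 3 matches in a row, which began 111, 105 and 100 bases before the start, the last 2 sharing 1 base, and 32.7% of regions held it. The Ets motif AGGAAG had 1 match, which began 130 bases before the start, and 29.5% of regions held it. The kappaB motif and the core of the hypoxia response motif, ACGTG, had 0 matches in this window, and 7.25% and 16.6% of regions held them. A match describes letters and not a bound site. For Plau the table used here held no entry.

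Plau, the protease, was higher at 2 and 14 dpi and lower at 60 dpi than in sham. In sham samples it read 360.3, 413, 300.0 and 326 normalized counts, for a mean of 350 ± 49.0 (SD, n = 4). At 2 dpi the samples read 500.3, 588, 475 and 381, for a mean of 486 ± 85.1 (SD, n = 4). At 14 dpi they read 531, 1138, 889 and 589.6, for a mean of 787 ± 282 (SD, n = 4). At 60 dpi they read 252, 202 and 177, for a mean of 210.3 ± 38.0 (SD, n = 3). Every 14 dpi sample thus lay above every sham sample, every 60 dpi sample lay below every sample of the other groups, and 2 dpi overlapped sham through its lowest sample, replicate 4. The behavior by group is seen in the plot of counts by sample. Raw counts of Plau were 349 to 1168 at 14 dpi and 199 to 247 at 60 dpi, well over the background limits.

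**Figure D1:**
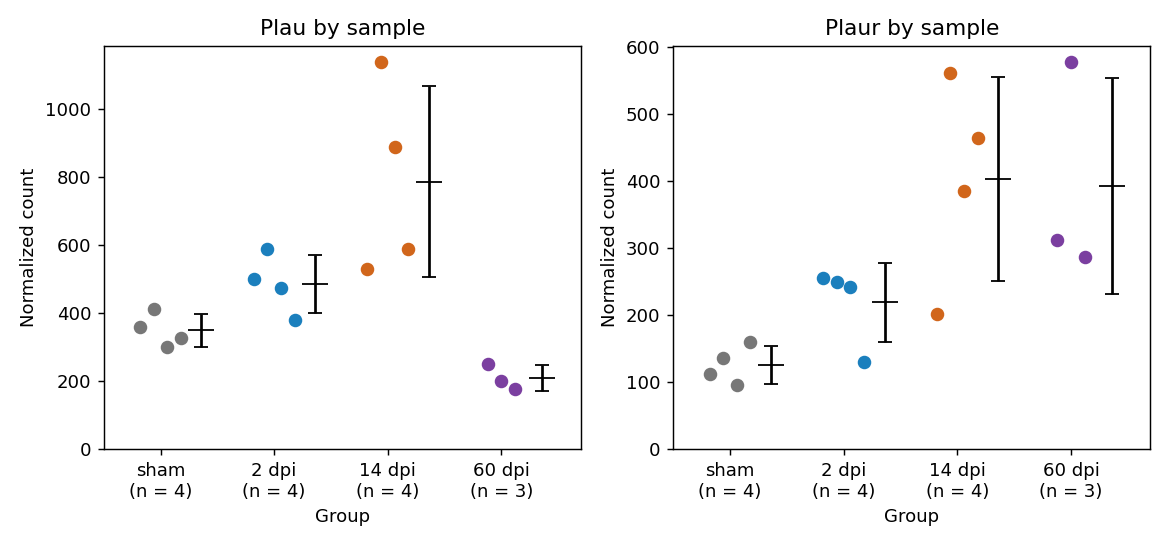
Normalized counts (y axis) of Plau (left) and Plaur (right) in each of the 15 samples by group (x axis); points are samples, and the bar beside them is the mean with its SD. Plau is highest at 14 dpi (787 ± 282) and lowest at 60 dpi (210.3 ± 38.0), whereas Plaur is at 403 ± 152 and 392 ± 161 in these groups.

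The log2 fold change of Plau against sham was 0.48 (SE 0.22) at 2 dpi, a 1.39-fold higher level, with the injured sample above the sham sample in 15 of 16 pairs. At 14 dpi it was 1.17 (SE 0.22), a 2.26-fold higher level. At 60 dpi it was -0.73 (SE 0.24), a 1.66-fold lower level. Groups that do not overlap were common on this panel: at 14 dpi 16.7% of the 359 tested genes had all injured samples above all sham samples, and at 60 dpi 11.1% had all below. Between injured groups, Plau at 60 dpi was 3.74-fold lower than at 14 dpi (log2 fold change -1.90, SE 0.25), without overlap, as held for 21.2% of tested genes. Only 8 of the 359 genes had a lower value in this comparison. Against 2 dpi, the log2 fold change at 60 dpi was -1.21 (SE 0.24), also without overlap (12% of genes), and at 14 dpi it was 0.70 (SE 0.21) with overlap. The scaling moved these values for 2 dpi, since over the 359 genes the median at 2 dpi vs. sham was -0.30 on the log2 scale, and -0.04 with TMM factors. With TMM factors Plau was at 0.73 at 2 dpi vs. sham, and at 0.25 at 14 dpi vs. 2 dpi.

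Plaur, the receptor, was higher than sham at all 3 times and was still so at 60 dpi. Sham samples read 112, 136, 95.2 and 160.3 normalized counts, for a mean of 126 ± 28.4 (SD, n = 4). The 2 dpi samples read 255, 249.9, 241 and 130.5, for a mean of 219 ± 59.4 (SD, n = 4). The 14 dpi samples read 202, 561, 386 and 465, for a mean of 403 ± 152 (SD, n = 4). At 60 dpi the samples read 313, 578 and 287, for a mean of 392 ± 161 (SD, n = 3). All samples at 14 and at 60 dpi lay above all sham samples, and 3 of the 4 samples at 2 dpi did so, the exception being replicate 4, which lay within the sham range. At 60 dpi replicate 2 stood well above the other samples of its group, which both lay above the whole of 2 dpi.

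The log2 fold change of Plaur against sham was 0.80 (SE 0.32) at 2 dpi, 1.68 (SE 0.32) at 14 dpi and 1.64 (SE 0.34) at 60 dpi. These are levels 1.74-fold, 3.20-fold and 3.12-fold higher. At 14 dpi 11 of the 359 tested genes had a larger log2 fold change. At 60 dpi all injured samples lay above all sham samples for 23.7% of tested genes. Plaur at 60 dpi vs. 14 dpi had a log2 fold change of -0.03 (SE 0.33), with overlap. The sign of this small difference turned with the scaling, being 0.06 with TMM factors. At 60 dpi vs. 2 dpi it was 0.84 (SE 0.33) without overlap, as held for 49.9% of genes, and at 14 dpi vs. 2 dpi it was 0.88 (SE 0.31) with overlap. With TMM factors these were 0.49 and 0.43. Without replicate 2 of 60 dpi the value at 60 dpi vs. sham was 1.25. The plot of fold changes by scaling shows that neither gene changed direction against sham at any time.

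**Figure D2:**
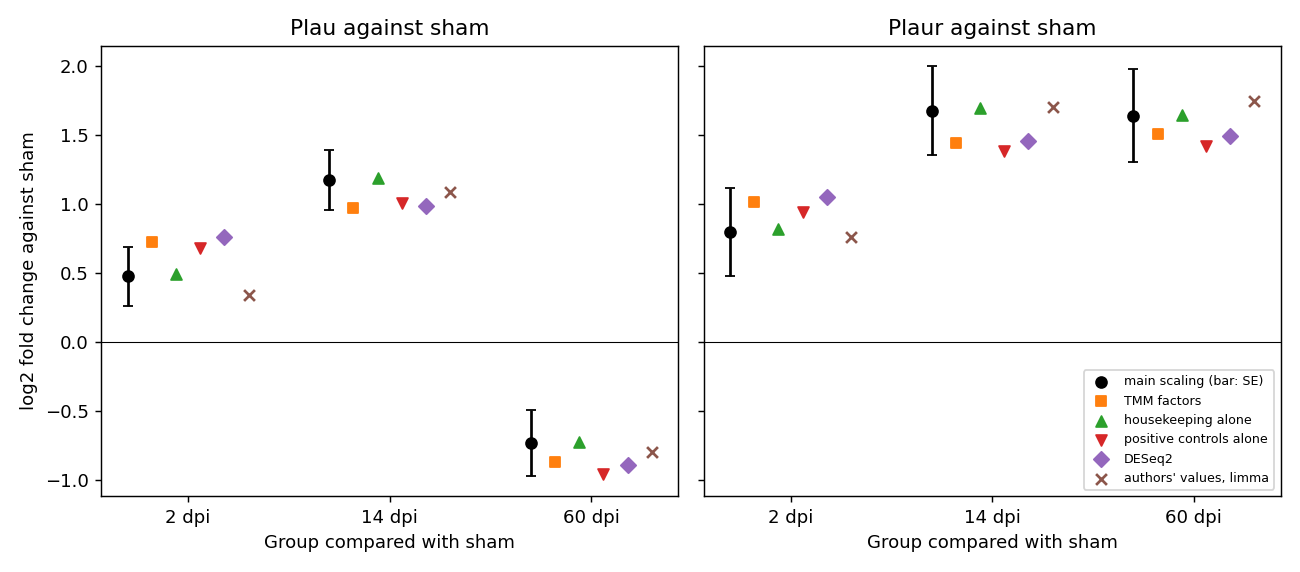
Log2 fold changes against sham (y axis) of Plau (left) and Plaur (right) at 2, 14 and 60 dpi (x axis) with the main scaling (black, bar: SE) and 5 other ways to scale or fit the counts. At 60 dpi every setting puts Plau below sham (main value -0.73) and Plaur above it (1.64).

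The paths of the enzyme and its receptor parted between 14 and 60 dpi. The ratio of the 2 raw counts within a sample is free of any scaling factor. Its height also holds how well each probe captures its target, so only its change between samples is read. The 60 dpi samples were a run of their own. A difference between runs in this capture therefore cannot be told apart from a change with time. In sham samples the log2 ratio of Plau to Plaur was 1.69, 1.61, 1.66 and 1.02, for a mean of 1.49 ± 0.32 (SD, n = 4). At 2 dpi it was 0.97, 1.24, 0.98 and 1.55, for a mean of 1.18 ± 0.27 (SD, n = 4). At 14 dpi it was 1.40, 1.02, 1.20 and 0.34, for a mean of 0.99 ± 0.46 (SD, n = 4). At 60 dpi it was -0.31, -1.52 and -0.69, for a mean of -0.84 ± 0.61 (SD, n = 3). The 3 samples of 60 dpi lay below all 12 others, while sham, 2 dpi and 14 dpi overlapped each other. The difference at 60 dpi was -2.33 (SE 0.39) vs. sham, -2.02 (SE 0.38) vs. 2 dpi and -1.83 (SE 0.42) vs. 14 dpi on the log2 scale. At 2 and 14 dpi the differences vs. sham were -0.31 (SE 0.21) and -0.50 (SE 0.28).

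**Figure D3:**
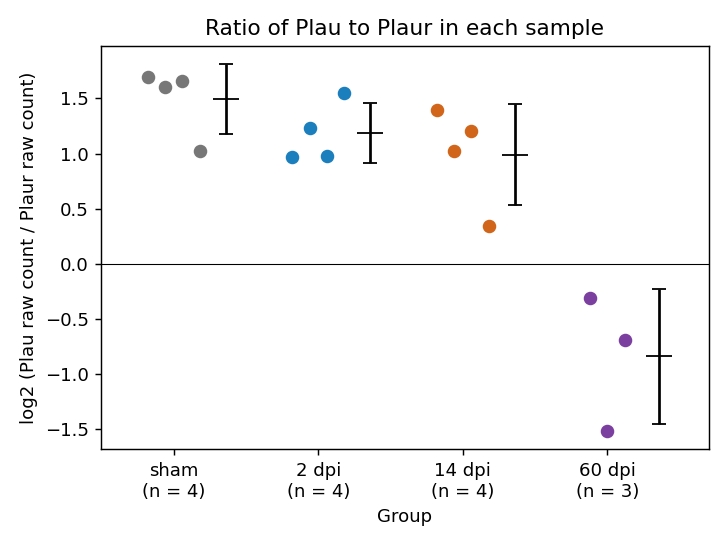
Log2 ratio of the raw counts of Plau to Plaur (y axis) in each sample by group (x axis); points are samples, and the bar beside them is the mean with its SD. The 60 dpi samples, at -1.52 to -0.31, lie below the other 12 samples, at 0.34 to 1.69.

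Markers of neutrophils and monocytes, cells in which Plaur is known to be abundant, moved with some of these values. Of 15 neutrophil markers listed, 8 were on the panel and 6 were tested, among them S100a8, S100a9, Camp and Ltf. Their summed level was 9461, 40069 and 11394 normalized counts in the 60 dpi samples and 9173 in sham replicate 4, against 1184 to 1622 in the other sham samples. It was 10086 in 2 dpi replicate 3, against 1123 to 2462 in the other 2 dpi samples, and 1408 to 2250 at 14 dpi. The 60 dpi sample with the highest sum, replicate 2, had the highest Plaur and the lowest Plau to Plaur ratio of its group, and so did sham replicate 4 within sham. At 2 dpi replicate 3 did not have the highest Plaur, and at 14 dpi Plaur was high where the sum was not. Ltf alone of the 6 was called higher than sham at 60 dpi in edgeR (adjusted p = 0.0471). It was near background, above it in 1 of 4 sham and 1 of 3 60 dpi samples. Its mean at 60 dpi was 46.9 normalized counts, under that group's mean background limit of 57.7. At 60 dpi vs. 14 dpi 4 of the 6 were called higher, S100a8, S100a9, Camp and Ltf, and Csf3r lower, where 21.7% of all tested genes were called higher. A further 2 of the 8, the chemokine receptors Cxcr1 and Cxcr2 of neutrophils, were above background in no sample of 60 dpi. The 7 monocyte markers summed to 552 to 759 normalized counts in sham, 1277 to 1634 at 2 dpi, 642 to 1086 at 14 dpi and 1031 to 1606 at 60 dpi. Of the 7, 5, 1 and 6 were higher than sham at 2, 14 and 60 dpi in edgeR, where 7.24%, 21.4% and 25.3% of all tested genes were. Markers of endothelial cells summed to 291 to 956 at 60 dpi, against 137 to 247 in sham. In each group most T, B and NK cell markers were above background in no sample. At 60 dpi the T cell markers summed to 509 to 705, against 179 to 476 in sham, without overlap. The NK cell markers summed to 92.5 to 137, against 27.3 to 90.1, also without overlap. These sums include background. At 60 dpi 9 of 12 T cell and 4 of 5 NK cell markers were above it in no sample. The negative-control mean was 23.9 to 27.5 raw counts in the 60 dpi samples and 12.25 to 15.5 in sham. Background can thus raise both sums at 60 dpi, and the NK cell sum cannot be told apart from it. Of the T cell markers, Cd3d, Cd247 and Cd28 were above background in 3 of 3 samples at 60 dpi. In sham they were above it in 3, 4 and 4 of 4 samples. Markers of border macrophages summed to 177 to 313 at 60 dpi, against 85.5 to 168 in sham. Cd3d of T cells (adjusted p = 0.000201), Klrk1 of NK cells (adjusted p = 0.0402) and Cd163 of border macrophages (adjusted p = 0.00112) were called higher than sham at 60 dpi in edgeR. The part of these cells in the values of Plau and Plaur was not tested.

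Whether samples of the same group that were high in Plau were also high in Plaur does not depend on the change with time. Deviations of log2 normalized counts from the group means had a Pearson r of 0.58 over the 15 samples (exact permutation within groups over 82944 arrangements, two-sided p = 0.0813). Spearman's rho was 0.39 (exact p = 0.237), and 9 of 15 samples deviated in the same direction in both genes. This was the only relation of its kind computed, so the adjusted p is the same. Within the 12 samples of the first run r was 0.69 (exact p = 0.0467) and rho 0.46 (exact p = 0.236). Without the 2 samples farthest from the median of Plau, replicates 1 and 2 of 14 dpi, r was 0.30 (exact p = 0.374), a step that also narrows the range of Plau. With positive-control factors alone, which leave differences in the amount of RNA between samples in both genes, r was 0.79 (exact p = 0.00433). Over the settings tried p ran from 0.00433 to 0.374. The plot of deviations shows the 14 dpi samples at both ends of the cloud.

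**Figure D4:**
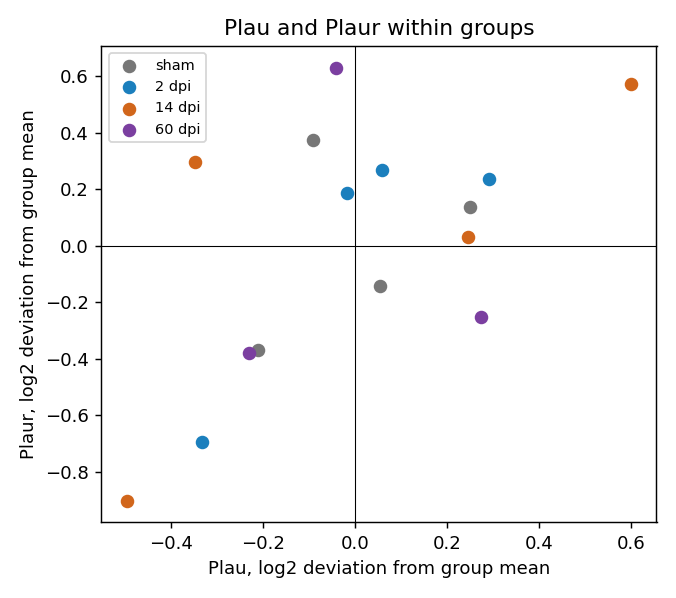
Deviation of each sample's log2 normalized count from its group mean, for Plau (x axis) and Plaur (y axis), with the group in color. The 14 dpi replicates 1 and 2 lie farthest out along the diagonal, and r over the 15 samples is 0.58.

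The genes most like Plau were others with a peak at 14 dpi and a low at 60 dpi, as measured by Pearson's r of log2 (normalized count + 1) over the 15 samples, which share panel, sort and, for 12 of them, run. Csf1, the growth factor of microglia and macrophages, had an r of 0.96 with Plau and means of 413, 597, 1125 and 185 normalized counts in sham and at 2, 14 and 60 dpi. Mapkapk2, a kinase downstream of p38, had an r of 0.94 and means of 282, 411, 652 and 243. Lilrb4, an inhibitory receptor of myeloid cells, had an r of 0.91 and means of 148, 419.7 and 729 in sham and at 2 and 14 dpi, and was above background in 0 of 3 samples at 60 dpi, at least 12.6-fold lower than at 14 dpi. Raw counts of Lilrb4 at 60 dpi were 21, 17 and 52, beside negative-control means of 27.5, 23.9 and 25.75 in these samples. Whether its probe read the target in the run of 60 dpi was not tested. Cebpb, a transcription factor of inflammatory genes, and Tnf followed with an r of 0.89 each. Such an r mostly reflects the differences between the 4 group means and carries no p.

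The genes most like Plaur had means above those of sham at 60 dpi as well. Ikbke, a kinase of interferon induction, had an r of 0.89 with Plaur and means of 23.3, 42.4, 77.6 and 71.8 normalized counts in sham and at 2, 14 and 60 dpi. Cxcr4, the receptor of Cxcl12, had an r of 0.88 and means of 51.3, 119, 264 and 175. Il1r2, the decoy receptor of interleukin 1 and also on the neutrophil list, had an r of 0.85 and means of 40.2, 78.7, 109.8 and 93.9. Cdkn1a, a cell cycle inhibitor, had an r of 0.84, and Ifnb1, the gene of interferon beta, had an r of 0.83. In sham, Ikbke was above background in replicate 4 only, and Ifnb1 in 0 of 4 samples. Over the 15 samples the 5 genes most like Plau and the 5 most like Plaur had none in common. Plaur stood at rank 122 of 358 genes by its likeness to Plau (r 0.26), and over the 12 samples of the first run, which leave out 60 dpi, at rank 9 (r 0.90). In these 12 samples 2 of the 5 genes named remained among the 5 most like Plau, and 2 of 5 among those most like Plaur, and both lists then held Mapkapk2 and Tlr2.

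Of 28 listed genes of plasminogen activation, including activators, inhibitors and plasminogen receptors, the panel held Plau, Plaur and Serping1, and the others were not analysed here. Serping1 encodes the C1 inhibitor, which blocks complement proteases and plasma kallikrein. It was close to background, at 31.1, 36.6 and 23.0 normalized counts on average at 2, 14 and 60 dpi and 19.7 in sham, and was above background in 3 of 4, 2 of 4, 0 of 3 and 0 of 4 samples of these groups. Against sham it was called higher at 14 dpi (edgeR adjusted p = 0.0344), at least 1.04-fold. This call was lost without sham replicate 3 or 4 or 14 dpi replicate 1, 2 or 4 (adjusted p up to 0.103), with no filter (adjusted p = 0.0613), with positive-control factors alone (adjusted p = 0.0799) and when just the 2 groups compared were fitted (adjusted p = 0.0786).

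Across the 4 lists of the urokinase system, 25 genes beside Plau and Plaur were tested. At 2 dpi 3 of the 25 were higher and 4 lower than sham, where 7.24% and 28.1% of all tested genes were higher and lower. At 14 dpi 8 were higher and 1 lower, beside 21.4% and 4.18% of all genes. At 60 dpi 9 were higher and 5 lower, beside 25.3% and 11.1%. These calls are at an adjusted p under 0.05 in edgeR's quasi-likelihood test with Benjamini-Hochberg adjustment over the 359 genes. The 3 comparisons share the sham samples. Between injured groups, 11 of the 25 differed at 60 vs. 14 dpi (44.0% of all tested genes) and 11 at 14 vs. 2 dpi (42.3%). At 60 vs. 2 dpi 9 of the 25 were higher and 5 lower, and the share of all tested genes is not given here. At 2 dpi the balance turned with the scaling, with 7 higher and 1 lower with TMM factors and 10 higher and 1 lower with DESeq2. With positive-control factors alone 1, 2 and 3 genes were higher and 0, 0 and 3 lower at 2, 14 and 60 dpi.

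The partners of the urokinase receptor at the cell surface moved apart from each other. Of 10 tested, 2 were higher and 1 lower than sham at 2 dpi (median log2 fold change 0.38, against -0.30 over all tested genes), 3 were higher at 14 dpi (0.60 against 0.08), and 2 were higher and 1 lower at 60 dpi (0.12 against 0.12). Itgax, the integrin chain CD11c of activated microglia and dendritic cells, read 248, 299, 223 and 157 normalized counts at 14 dpi, 106, 98.2 and 112 at 60 dpi and 25.7 to 43.7 in sham. It rose at 14 dpi (log2 fold change 2.76, SE 0.26, adjusted p = 7.7e-07 in edgeR) and at 60 dpi (1.61, SE 0.27, adjusted p = 0.000154), and no sample of either group overlapped sham. Igf2r, the receptor that carries mannose 6-phosphate ligands to lysosomes and binds the urokinase receptor, rose at 2 dpi (1.28, SE 0.30, adjusted p = 0.00422) and 14 dpi (1.12, SE 0.31, adjusted p = 0.0115), with 1 of 4 sham samples above background.

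Itgb2, the common beta chain of the leukocyte integrins, read 426, 490.1 and 334 normalized counts at 60 dpi and 865 to 1144 in sham. It fell at 60 dpi (log2 fold change -1.23, SE 0.18, adjusted p = 3.2e-05 in edgeR) and had values of -0.05 (SE 0.16) at 2 dpi and 0.04 (SE 0.16) at 14 dpi. Itgam, its alpha partner CD11b, on which the cells were sorted, averaged 1627, 1604 and 1557 normalized counts at 2, 14 and 60 dpi and 1999 in sham, and did not pass at any time. Itgb1, the beta chain of the fibronectin receptor, was within 0.07 of sham on the log2 scale at all 3 times (SE 0.14 to 0.15). Its alpha partner Itga5 rose at 14 dpi (1.25, SE 0.35, adjusted p = 0.0115) and did not pass without 14 dpi replicate 2 (adjusted p = 0.068). Itgal, the alpha chain of LFA-1, was called higher at 60 dpi (1.004, SE 0.35, adjusted p = 0.033) with 1 of 3 samples above background, and this was lost without sham replicate 3 or 4 or 60 dpi replicate 2 or 3 (adjusted p up to 0.123), with the negative-control mean subtracted (adjusted p = 0.0545), with limma on the authors' values (adjusted p = 0.0628), with positive-control factors alone (adjusted p = 0.0691) and when just the 2 groups compared were fitted (adjusted p = 0.0994). Pdgfrb, a growth factor receptor of pericytes, was higher at 2 dpi (0.96, SE 0.31, adjusted p = 0.0226) and did not pass without sham replicate 4 or 2 dpi replicate 1, 2 or 3 (adjusted p up to 0.0627). Il6st, the signal chain gp130 of the interleukin 6 family, fell at 2 dpi (-0.67, SE 0.18, adjusted p = 0.00779) and did not pass with TMM factors (-0.40, adjusted p = 0.0621). Vtn, vitronectin, the matrix ligand of the receptor, averaged 71.2 and 67.6 normalized counts at 2 and 14 dpi and 47.7 in sham, did not pass, and was above background in no sample of 60 dpi.

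Among the tested substrates of urokinase and plasmin, C3, Ccl2 and Tgfb2 had their highest mean at 60 dpi. Of 6 tested, 1 was higher than sham at 2 dpi, 1 at 14 dpi and 4 at 60 dpi, and none was lower. Of all tested genes 7.24%, 21.4% and 25.3% were higher at these times. Medians were 0.53, 0.31 and 1.25 on the log2 scale against -0.30, 0.08 and 0.12 over all genes. The 4 at 60 dpi include Fn1, whose call was lost in several settings given below. C3, the central complement protein, which plasmin can cut, averaged 245 ± 58.2 normalized counts at 60 dpi (SD, n = 3) and 54.3 ± 25.2 in sham (SD, n = 4). Its log2 fold change was 2.24 (SE 0.42, adjusted p = 0.000797 in edgeR) at 60 dpi and 1.95 (SE 0.40, adjusted p = 0.00196) at 14 dpi. At 60 vs. 14 dpi it was 0.28 (SE 0.39) and did not pass. Ccl2, a monocyte chemokine that plasmin trims, rose at 60 dpi (1.49, SE 0.24, adjusted p = 0.000128), as did Tgfb2, a growth factor made in latent form (1.49, SE 0.39, adjusted p = 0.00609). Tgfb2 was close to background, above it in 2 of 4 samples each of sham, 2 dpi and 14 dpi and in 3 of 3 at 60 dpi. Its raw counts at 60 dpi were 80, 69 and 120, against background limits of 61.9, 57.1 and 67.7. Fn1, fibronectin, read 606, 576, 511 and 638 normalized counts at 2 dpi and 248 to 278 in sham, and rose there (1.16, SE 0.33, adjusted p = 0.0148). At 60 dpi it read 403, 308 and 868 (1.01, SE 0.35, adjusted p = 0.0346). Without the highest of these, replicate 3, the log2 fold change was 0.44 (adjusted p = 0.296), and the call was also lost without any 1 of the 4 sham samples (adjusted p up to 0.0732), with TMM factors (0.87, adjusted p = 0.107), with limma on the authors' values (adjusted p = 0.0897), with positive-control factors alone (adjusted p = 0.367) and with no filter (adjusted p = 0.0541). Fn1 is on the list of monocyte markers as well. Tgfb1 had log2 fold changes of -0.37, 0.08 and -0.30 at 2, 14 and 60 dpi and did not pass.

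**Figure D5:**
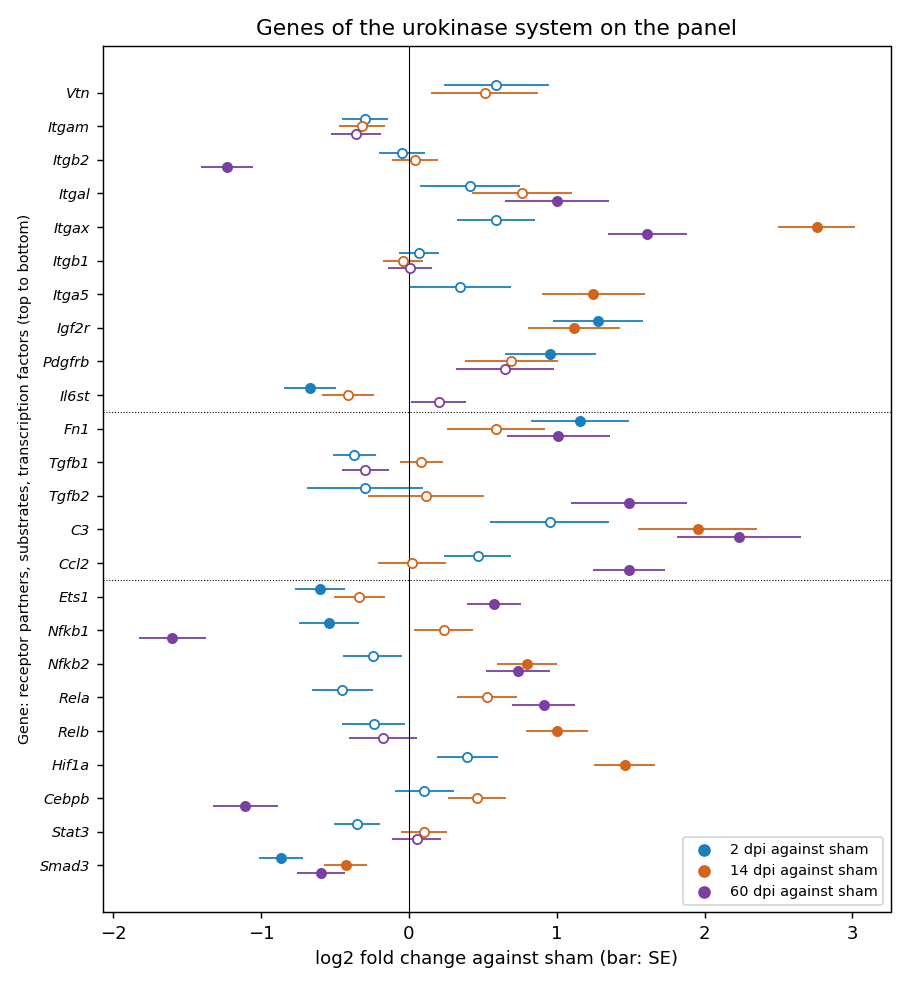
Log2 fold change against sham (x axis, bar: SE) of 24 tested genes of the urokinase system (y axis) at 2, 14 and 60 dpi, with filled points at an adjusted p under 0.05 in edgeR. Contrasts in which a group had no sample above background are left out, Serping1 entirely and Hif1a, Igf2r, Itga5 and Vtn at 60 dpi; Itgax at 14 dpi (2.76) and C3 at 60 dpi (2.24) lie farthest to the right.

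Among transcription factors known to regulate Plau or Plaur in other cells, 9 of 20 listed were tested, and none of these belongs to AP-1 or is Sp1, whose motifs are marked above. At 2 dpi 3 of the 9 were lower than sham, at 14 dpi 3 were higher and 1 lower, and at 60 dpi 3 were higher and 4 lower, with medians of -0.35, 0.46 and -0.17 on the log2 scale against -0.30, 0.08 and 0.12 over all tested genes. At 2 dpi 28.1% of all tested genes were lower, close to the share among these 9. Hif1a, the oxygen-regulated factor, read 315, 563, 474 and 350 normalized counts at 14 dpi and 132 to 180.1 in sham, and rose (1.46, SE 0.21, adjusted p = 5.9e-05 in edgeR). At 60 dpi none of its 3 samples was above background, a level at least 2.70-fold lower than sham (adjusted p = 4.6e-09). Its raw counts there were 4, 8 and 14, under the negative-control means of 27.5, 23.9 and 25.75 in the same samples. Whether the probe read its target in that run was not tested. Cebpb, at 594, 516 and 384 normalized counts at 60 dpi and 923 to 1391 in sham, fell there (-1.11, SE 0.22, adjusted p = 0.000742). Of the other factors, Nfkb1 and Smad3 were also called lower at 60 dpi, while Ets1, Nfkb2 and Rela were called higher. Cebpb was among the 5 genes most like Plau over the 15 samples. Over the 12 samples of the first run it stood at rank 43 (r 0.78). Any action of these factors on Plau was not tested.

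The NF-kappaB subunits did not move as a block. Relb and Nfkb2, of the noncanonical branch, rose at 14 dpi (log2 fold changes 1.001, SE 0.21, adjusted p = 0.00164, and 0.80, SE 0.20, adjusted p = 0.00652 in edgeR). Rela rose at 60 dpi (0.91, SE 0.21, adjusted p = 0.00262), and Nfkb2 was called higher there too (0.74, SE 0.22, adjusted p = 0.0118), a call lost without 60 dpi replicate 1 (adjusted p = 0.0779). Positive-control factors alone undid the calls of Relb at 14 dpi (adjusted p = 0.314) and Rela at 60 dpi (0.58, adjusted p = 0.482). They also undid those of Nfkb2 at 14 and 60 dpi (adjusted p = 0.720 and 0.664). Nfkb1 read 128, 98.2 and 114 normalized counts at 60 dpi and 280.0 to 415 in sham, and fell (-1.60, SE 0.23, adjusted p = 3.2e-05). Its lower call at 2 dpi (-0.54, SE 0.20, adjusted p = 0.0415) was lost with TMM factors (-0.29, adjusted p = 0.207) and without sham replicate 2 or 3, 2 dpi replicate 1, 3 or 4, or 14 dpi replicate 3 (adjusted p up to 0.133).

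Ets1, whose motif family has a match before Plaur, was lower at 2 dpi (log2 fold change -0.60, SE 0.17, adjusted p = 0.0129 in edgeR) and higher at 60 dpi (0.58, SE 0.18, adjusted p = 0.0196). With TMM factors neither passed (-0.35, adjusted p = 0.174, and 0.43, adjusted p = 0.0742), and at 60 dpi the call was lost without 60 dpi replicate 1 or 3 (adjusted p up to 0.107). Smad3, the signal carrier of TGF-beta, fell at 2 dpi (-0.87, SE 0.15, adjusted p = 0.0013) and 60 dpi (-0.59, SE 0.16, adjusted p = 0.0074), a call lost at 60 dpi without 60 dpi replicate 2 (adjusted p = 0.0511). At 14 dpi it was called lower (-0.43, SE 0.15, adjusted p = 0.0407), and 9 of the 12 first-run samples each undid this call when left out (adjusted p up to 0.121). Stat3 did not pass at any time.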

How the data were processed

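Microglia RNA of 15 samples was counted with an nCounter mouse panel, which the methods call inflammation and the deposited labels call immunology. The authors deposited a table of raw counts, handled here as estimated counts; all probe values were whole, so rounding changed nothing. The authors also deposited a normalized signal, made per the methods with NanoStringNorm. Tested on the values, all 8205 equalled the count less the negative-control mean, floored at 0, scaled to a housekeeping sum of 9027.27, within 0.001. The tables held 547 endogenous genes, 14 housekeeping genes, 6 positive and 8 negative controls. The authors' published test, NanoStringDiff, was not run.

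Counts were scaled by positive-control times housekeeping factors (0.535 to 1.96). Genes above the mean plus 2 SD of the negative controls in at least 3 samples (359) were fitted in edgeR 4.0.16 (R 4.3.3), quasi-likelihood, robust, 1 mean per group, Benjamini-Hochberg at 0.05. Where all samples of a group were below background, folds were computed from that group's mean normalized limit and are written "at least". The design had named the unit counts. Scripts were checked on simulated data. Members and gene lists were chosen with earlier results of these data known. Named genes were Plau and Plaur, panel members of the plasminogen and receptor partner lists, members of the other 2 lists that passed at any time, and the 5 genes most like each of Plau and Plaur by Pearson's r; Tgfb1 and Stat3, outside this rule, are named after their values were seen, as are marker genes. Correlations were tested with SciPy 1.17.1. Alternatives were TMM, housekeeping or positive-control factors alone, DESeq2 1.42.0, subtraction of the negative-control mean, no filter, 2-group fits, limma 3.58.1 on log2 of the authors' normalized signal plus 1, and leaving out each sample. Of 547 probe accessions 537 matched the RefSeq annotation.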

Additional observations from a re-analysis of the deposited data

Results flagged for a closer look

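In groups of 4 samples, a sample was marked where its distance from the nearest other sample was large beside the range of its group, which chance gives in about 1 of 20 groups. Of 69 groups examined 4 were marked. Plaur in 2 dpi replicate 4 read 130.5 normalized counts, against 241 to 255 in the other samples of its group. The log2 ratio of Plau to Plaur in sham replicate 4 was 1.02, against 1.61 to 1.69 in the other sham samples. C3 read 17.6 in sham replicate 3, and Rela read 131 in 2 dpi replicate 2.

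Plau lay on opposite sides of the sham mean at 60 and 14 dpi in every sample, with a log2 difference of -1.90 between these groups, and likewise at 60 and 2 dpi, with -1.21. The difference was not tested, since Plau was chosen for its change with time.

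Among the 25 other tested genes of the urokinase system, 10 differed between injured groups in edgeR and had changes against sham of opposite sign, at least 1 of them called. The share of all tested genes that this rule marks was not computed. Of all tested genes 42.3% differed at 14 vs. 2 dpi and 44.0% at 60 vs. 14 dpi. The share at 60 vs. 2 dpi is not given here, so the genes listed for that comparison have no matching share. Both changes against sham were called only for Ets1 at 60 vs. 2 dpi and Hif1a at 60 vs. 14 dpi. Some of the others were near 0, as for Itgb2 at 14 dpi (0.04, SE 0.16), Cebpb at 2 dpi (0.10, SE 0.20) and Relb at 60 dpi (-0.17, SE 0.23). At 60 vs. 14 dpi the log2 fold change was -1.27 for Itgb2 (adjusted p = 1.9e-05), 0.92 for Ets1 (adjusted p = 0.000644), -1.84 for Nfkb1 (adjusted p = 9e-06), -1.18 for Relb (adjusted p = 0.000595) and -1.57 for Cebpb (adjusted p = 2.5e-05). For Hif1a the fitted value was -5.73 (adjusted p = 7.7e-11), and against the background limit of 60 dpi it was at least 7.38-fold lower. At 60 vs. 2 dpi the log2 fold change was 0.87 for Il6st (adjusted p = 0.000985), 1.78 for Tgfb2 (adjusted p = 0.00117), 1.18 for Ets1 (adjusted p = 6.9e-05), 0.98 for Nfkb2 (adjusted p = 0.00116), 1.36 for Rela (adjusted p = 7.9e-05) and -1.21 for Cebpb (adjusted p = 0.000288). For Hif1a the fitted value was -4.67 (adjusted p = 1.1e-09), at least 3.53-fold lower against the background limit. At 14 vs. 2 dpi the log2 fold change was 0.78 for Nfkb1 (adjusted p = 0.00463), 1.05 for Nfkb2 (adjusted p = 0.000635) and 1.24 for Relb (adjusted p = 0.000248).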

How the results depend on the processing

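No value for Plau, Plaur or the urokinase genes changed direction past the spread between samples under any alternative; the small log2 fold change of Plaur at 60 vs. 14 dpi (-0.03) ran from -0.43 to 0.17 when 1 sample was left out. The log2 fold change of Plau at 2 dpi vs. sham was 0.73 with TMM factors and 0.76 with DESeq2, against 0.48. At 60 dpi vs. sham it was -0.96 with positive-control factors alone, against -0.73. At 14 vs. 2 dpi it was 0.25 with TMM factors and 0.23 with DESeq2, against 0.70, and at 60 vs. 2 dpi -1.60, -1.64 and -1.65 with TMM factors, positive-control factors alone and DESeq2, against -1.21.

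Urokinase genes called higher at 2 dpi numbered 3, and 7 with TMM factors, 10 with DESeq2, 5 with the negative-control mean subtracted, 5 with the authors' values and limma, and 1 with positive-control factors alone. Those called lower numbered 4, and 1, 1, 8 and 0 with TMM factors, DESeq2, the authors' values and positive-control factors alone. At 14 dpi 8 were higher, and 2 with positive-control factors alone; 1 was lower, and 4 with TMM factors or DESeq2 and 0 with positive-control factors alone, no filter or only the 2 groups compared (Smad3, 0.0647 to 0.647 adjusted p in edgeR). At 60 dpi 9 were higher and 5 lower, and 3 and 3 with positive-control factors alone. Leaving out 1 sample at a time gave 2 to 6 higher and 3 to 5 lower at 2 dpi (6 without 2 dpi replicate 4), 7 to 11 and 0 to 1 at 14 dpi, and 6 to 9 and 4 to 5 at 60 dpi. The cause of these shifts was not tested. The within-group r of Plau and Plaur was 0.79 with positive-control factors alone and 0.69 in the first run, against 0.58. Of the 5 genes most like Plau 2 remained in the first run, and of those most like Plaur 3 with Spearman's rho and 2 in the first run. No paired analysis was possible because the labels give lanes and no replicate numbers shared between groups. With 3 or 4 samples a group, changes near the spread were not detectable.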
